A study of Mus musculus with 23 samples.

Results

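The let-7 family together with miR-98 was followed in 2 sorted cell types of the mouse lung at 6 stages. Its 9 members were taken by identifier from the deposited table, which lists identifiers without names. They were let-7a-5p (MIMAT0000521), let-7b-5p (MIMAT0000522), let-7c-5p (MIMAT0000523), let-7d-5p (MIMAT0000383), let-7e-5p (MIMAT0000524), let-7f-5p (MIMAT0000525), let-7g-5p (MIMAT0000121), let-7i-5p (MIMAT0000122) and miR-98-5p (MIMAT0000545). All 9 were present among the 602 microRNA rows, and all 9 were among the 302 rows tested. The ending 5p, for the arm of the hairpin, is left out below.

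All cells came from wild-type C57BL6 mice without treatment groups. Stages are written E16.5 and E18.5 for days of the embryo, and P1, P7, P14 and P28 for days after birth. Type II pneumocytes (AT2 cells, the surfactant-making cells of the alveolus, with CD326 in their descriptions) gave 3 samples at P28 and 2 at every other stage. Endothelial cells (EC, with CD31 in their descriptions) gave 2 samples at E16.5, P7, P14 and P28, and 1 at E18.5 and at P1. AT2 is the label at every stage, also before birth. The labels do not say whether a sample was 1 animal or several, and AT2 and EC samples had 9 specimen IDs in common. The cell types were not checked against markers here, because the identifiers outside the family carry no names in the sources used. Early stages below are E16.5 and E18.5, and late stages are P7, P14 and P28.

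The let-7 microRNAs are small RNAs that pair with messenger RNAs through their seed, the bases near their 5′ end, and lower the translation and stability of those messengers. Because their seed is shared, members can act on the same targets, among them Hmga2, Lin28 and Ras family genes. LIN28 proteins bind let-7 precursors and block their processing in embryonic cells, and mature let-7 is known to accumulate as tissues differentiate. The members are transcribed from several separate genes and clusters, so the same family activity can be made of different members in different cells.

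The mature sequences are shown because the members differ at few bases, so the shared seed and the differing bases can be read directly. Sequences are those of RefSeq (build GRCm38.p6), which matched 9 of 9 names, and capitals mark the seed, bases 2 to 8.
let-7a-5p: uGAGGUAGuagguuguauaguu
let-7b-5p: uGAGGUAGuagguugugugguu
let-7c-5p: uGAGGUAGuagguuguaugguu
let-7d-5p: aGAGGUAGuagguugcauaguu
let-7e-5p: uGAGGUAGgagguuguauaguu
let-7f-5p: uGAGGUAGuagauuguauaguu
let-7g-5p: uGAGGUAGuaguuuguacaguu
let-7i-5p: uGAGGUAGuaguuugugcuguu
miR-98-5p: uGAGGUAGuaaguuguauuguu

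All 9 share 1 seed, GAGGUAG, which 11 of the 1679 mature names in the RefSeq table carry. Relative to let-7a, counted from 1 at the 5′ end and with the base of let-7a first, let-7c differs by A19G, let-7e by U9G and let-7f by G12A. let-7b differs by A17G and A19G, let-7d by U1A and U16C, let-7g by G12U and U18C, and miR-98 by G11A and A19U. let-7i is the farthest from let-7a, with G12U, A17G, U18C and A19U. Of the 36 pairs of members, 4 differ at 1 base (let-7a with let-7c, let-7e and let-7f, and let-7b with let-7c), and the most distant pair, let-7d and let-7i, differs at 6. How far a probe for 1 member also counted another was not tested.

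The 9 mature forms match 12 hairpin genes on 7 chromosomes (GRCm38.p6). Mirlet7a-1 (chr13:48538179-48538272), Mirlet7f-1 (chr13:48537829-48537917) and Mirlet7d (chr13:48536012-48536114) lie together on the minus strand, and Mirlet7f-2 (chrX:151912346-151912428) and Mir98 (chrX:151913214-151913321) lie 785 bases apart on the plus strand. Mirlet7c-2 (chr15:85706603-85706697) and Mirlet7b (chr15:85707319-85707403) are 621 bases apart, also on the plus strand. Mirlet7c-1 (chr16:77599657-77599750) is beside Mir99a, Mirlet7e (chr17:17830352-17830444) beside Mir125a, and Mirlet7a-2 (chr9:41536716-41536811) is 5211 bases from Mir100, all on the plus strand. Mirlet7g (chr9:106178840-106178927, plus) and Mirlet7i (chr10:122985640-122985724, minus) have no other hairpin within 10000 bases on their strand. A mature microRNA made from 2 genes, as let-7a, let-7c and let-7f are, was measured as 1 value.

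The assay, NanoString nCounter, counts barcoded probes without amplification, and the deposited values are those counts times 1 factor per sample. Between 26640 and 571724 microRNA counts stood behind a sample, and every member was above background in all 23 samples, the lowest at 45 counts (miR-98 in EC E18.5 replicate 1). Counting error alone leaves a 95% Wilson half-width of at most 0.573 percentage points for the family's share of a sample. For a member's share of the family it is at most 1.12 percentage points. Over 49 microRNAs that differed at least 4-fold between the cell types, 3 EC samples lay part of the way to the AT2 mean. With 0 for the EC mean and 1 for the AT2 mean, they were replicate 2 at P14 (0.564), replicate 1 at P1 (0.338) and replicate 2 at P28 (0.227). The other EC samples lay between -0.103 and 0.141. The 3 were left out of the EC mean and of the choice of the 49, so the others lie near 0 partly by construction. AT2 E18.5 replicate 2 lay at 0.700, AT2 E16.5 replicate 2 at 0.814 and the other AT2 samples between 0.901 and 1.31. No AT2 sample was left out on this account. Where leaving out the 3 EC samples changed a call or a group separation, the value without them is given. Since the 3 were picked for their likeness to AT2 cells, leaving them out can widen differences between the cell types by construction. In sorted bulk samples, fewer cells of a type and less RNA per cell cannot be told apart.

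The family took 12.9% to 40.7% of all microRNA counts in a sample, and its summed value was higher in late than in early EC without overlap. In AT2 cells the sum of the 9 deposited values was 45548 and 40661 at E16.5, 42851 and 36625 at E18.5, 44942 and 43758 at P1, 34199 and 34795 at P7, 85434 and 44595 at P14, and 69681, 55539 and 66981 at P28. In EC it was 48676 and 45437 at E16.5, 46445 in the E18.5 sample, 43900 in the P1 sample, 62255 and 55847 at P7, 71092 and 53408 at P14, and 77200 and 64676 at P28. All 6 late EC samples were above the 3 early ones, whereas late AT2 samples overlapped early ones, with both P7 samples below any other AT2 sample. Of all tested microRNAs on the deposited scale, 6.95% separated upward in this way in EC and 7.28% in AT2 cells. Within the 9 specimen IDs the log2 ratio of the sums, AT2 over EC, averaged -0.14 ± 0.44 (SD, n = 9), with the AT2 sample higher in 3. In the 6 IDs without the 3 EC samples that stood toward AT2 cells it averaged -0.34 ± 0.34 (SD, n = 6), with the AT2 sample higher in 0.

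As a share of all microRNA counts, which does not depend on the deposited factor, the family took on average more of AT2 than of EC samples. It made up 24.8% and 25.8% of the counts in AT2 cells at E16.5, 24.9% and 24.2% at E18.5, 29.3% and 19.7% at P1, 26.2% and 23.6% at P7, 40.7% and 30.3% at P14, and 35.2%, 30.4% and 13.6% at P28. In EC it made up 13.6% and 12.9% at E16.5, 16% in the E18.5 sample, 19.5% in the P1 sample, 15.8% and 17.1% at P7, 17.03% and 25.8% at P14, and 17.6% and 20.6% at P28. Of the 9 specimen IDs, 8 had the higher share in AT2 cells, with a mean log2 ratio of 0.59 ± 0.48 (SD, n = 9), and in the 6 IDs without the 3 EC samples all 6 did (0.78 ± 0.21), so the direction between the cell types turns with the scale on which it is read.

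Single microRNAs outside the family moved with these shares. MIMAT0000138 alone took 23.4% to 44.9% of EC counts and 0.160% to 7.82% of AT2 counts, and MIMAT0003484 took 34.0% of AT2 P1 replicate 2 and 62.8% of AT2 P28 replicate 3, the 2 AT2 samples in which the family share was lowest. Both were chosen after their values were seen. With these 2 identifiers left out of the total, the family made up 29.0% to 43.3% of late and 26.2% to 28.2% of early AT2 counts, and 29.0% to 34.9% of late and 21.0% to 25.4% of early EC counts. On that share late samples lay above early ones without overlap in both cell types, whereas with all counts in the total they overlapped in both. The share of all tested microRNAs that separated on the reduced total was not taken. With the 2 identifiers left out, the mean log2 ratio of AT2 over EC was 0.16 ± 0.14 (SD, n = 9, higher in 8), or 0.15 ± 0.16 without the 3 EC samples (SD, n = 6, higher in 5).

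**Figure D1:**
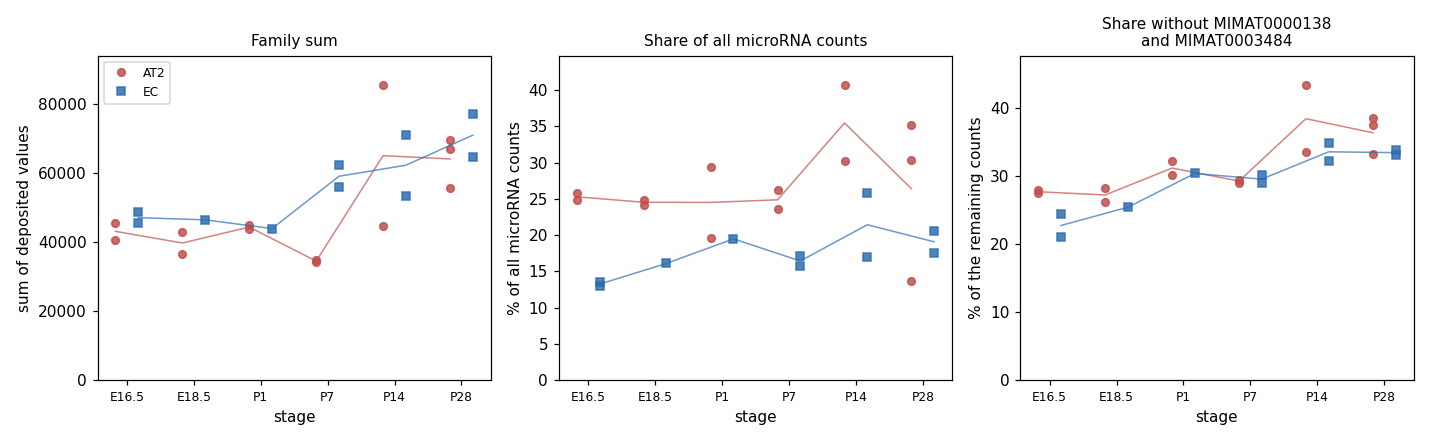
Family sum of deposited values, family share of all microRNA counts, and the same share with 2 identifiers left out, each by stage; circles are AT2 samples, squares EC samples, and lines join stage means. The late EC samples (53408 to 77200) sit above the early ones (45437 to 48676) in the left panel. Late and early samples overlap in both cell types in the middle panel, and both cell types are higher late than early in the right panel.

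The first comparison asked which members differ between the lung's type II and endothelial cells. Averaged over the 6 stages, let-7i and let-7b were lower in AT2 cells and no member was higher at an adjusted p below 0.05, the threshold for a call throughout (limma on log2(value + 1), Benjamini-Hochberg over 302 microRNAs). let-7i fell by 0.84 ± 0.16 on the log2 scale (SE, limma, adjusted p = 0.000174). let-7b fell by 0.50 ± 0.17 (SE, limma, adjusted p = 0.0141). With the shared specimen ID as a random block 4 members were called, let-7f (0.36, adjusted p = 0.0352) and let-7a (0.34, adjusted p = 0.0480) higher in addition to let-7i (-0.83) and let-7b (-0.49) lower (limma). Thus 2 of 9 members were lower, where 47.7% of all tested microRNAs were, and 0 of 9 were higher, where 19.5% were. At an unadjusted p below 0.05, 3 members were lower and 1 higher, and edgeR on the recovered counts found 1 lower and 3 higher. The median difference was -0.20 over the members and -0.43 over all 302. The split of all calls moved with the scaling, in that 29.1% of calls were higher in AT2 cells as deposited, 46.3% after a median shift, 49.7% after quantile scaling, 72.7% with scaling to the microRNA total and 47.1% in edgeR.

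let-7i, made from a single gene with no neighbouring hairpin, had the widest gap on the deposited scale. After a median shift (-0.49), in edgeR (-0.46), with quantile scaling (-0.18) and with the microRNA total (-0.04) its difference was smaller in size than those of let-7a and let-7f. Its values in AT2 cells were 5359 and 5202 at E16.5, 4508 and 3885 at E18.5, 2103 and 3215 at P1, 2726 and 3187 at P7, 4789 and 3661 at P14, and 2899, 2763 and 3579 at P28. In EC they were 6912 and 8053 at E16.5, 5826 in the E18.5 sample, 5008 in the P1 sample, 8454 and 7065 at P7, 8536 and 4055 at P14, and 8729 and 5934 at P28. AT2 samples were the lower ones at every stage except P14, where EC replicate 2 lay between the 2 AT2 samples. Without the 3 EC samples that stood toward AT2 cells the difference was -0.98 (limma, adjusted p = 3.96e-05, range over 37 alternatives 2.12e-05 to 0.874). EC then had no P1 sample, so this and the other AT2 minus EC averages without these 3 leave P1 out. The call of let-7i was lost with quantile scaling and with scaling to the microRNA total.

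let-7b, from the chromosome 15 cluster with let-7c, had 2474 to 12456 in AT2 samples (median 4855, n = 13) and 4439 to 14572 in EC samples (median 7589, n = 10). The ranges overlapped from 4439 to 12456. Its difference was -0.59 without the same 3 EC samples, -0.15 after a median shift, -0.11 in edgeR, -0.0016 after quantile scaling and 0.30 with scaling to the microRNA total.

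The other 7 members were not called on the deposited scale. let-7a (0.31 ± 0.16) and let-7f (0.35 ± 0.16), neighbours on chromosome 13, had positive log2 differences, as did miR-98 (0.10 ± 0.15). let-7g (-0.32 ± 0.15), let-7e (-0.27 ± 0.13), let-7d (-0.20 ± 0.15) and let-7c (-0.08 ± 0.17) had negative ones. All 4 were positive after a median shift, in edgeR and with the microRNA total, under which let-7c (0.72, adjusted p = 0.00899), let-7d (0.60, adjusted p = 0.0183) and let-7g (0.48, adjusted p = 0.0362) were called higher, as let-7c was with quantile scaling (0.47, limma, adjusted p = 0.0136). let-7g (-0.43, adjusted p = 0.0413) and let-7e (-0.33, adjusted p = 0.0429) were called lower without the 3 EC samples (limma). No member separated all AT2 samples from all EC samples, while 4.97% of tested microRNAs did so on the lower side and 0.331% on the higher side. Without the 3 EC samples let-7i did, with at most 5359 in AT2 cells and at least 5826 in EC. The share of all tested microRNAs that separated without them was not taken.

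Taken stage by stage, members passed the test at P7 and at P28. At P7, let-7i (-1.39 ± 0.37, adjusted p = 0.00832), let-7b (-1.05 ± 0.39, adjusted p = 0.0374) and let-7e (-0.78 ± 0.30, adjusted p = 0.0451) were lower in AT2 cells (limma, log2 ± SE), 3 of 9 where 44.0% of all tested microRNAs were called. At P28 let-7i was lower, with -1.23 ± 0.33 (limma, adjusted p = 0.00961), where 29.1% were called. At E16.5, E18.5, P1 and P14 limma called 0 of 9, where it called 35.8%, 2.65%, 7.28% and 21.9% of all tested microRNAs. At an unadjusted p below 0.05 there were 0, 1, 1 and 0 members at those 4 stages, and edgeR called 0 at each. Without the 3 EC samples, of which 1 is from P14, let-7i was called lower at P14 (-1.03, limma, adjusted p = 0.0389), against -0.49 with them. The P7 values of let-7e were 1498 and 1202 in AT2 cells and 2639 and 2017 in EC. With scaling to the microRNA total the P7 differences were 0.59 for let-7e, 0.32 for let-7b and -0.02 for let-7i, none of them called, and edgeR called no member at P7. With the specimen block let-7c was also called lower at P7 (-0.87, limma, adjusted p = 0.0403). Leaving out any of the 4 P7 samples ended the P7 call of let-7b, and leaving out AT2 P7 replicate 1 or EC P7 replicate 1 ended that of let-7i, while that of let-7e ended in 15 of the 23 fits that left out 1 sample. Leaving out EC P28 replicate 1 ended the P28 call of let-7i, at -0.95 (limma, adjusted p = 0.152, range over 37 alternatives 0.00266 to 0.220). Without the 3 EC samples that stood toward AT2 cells it was -1.51. Whether these differences themselves changed between stages was not tested.

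**Figure D2:**
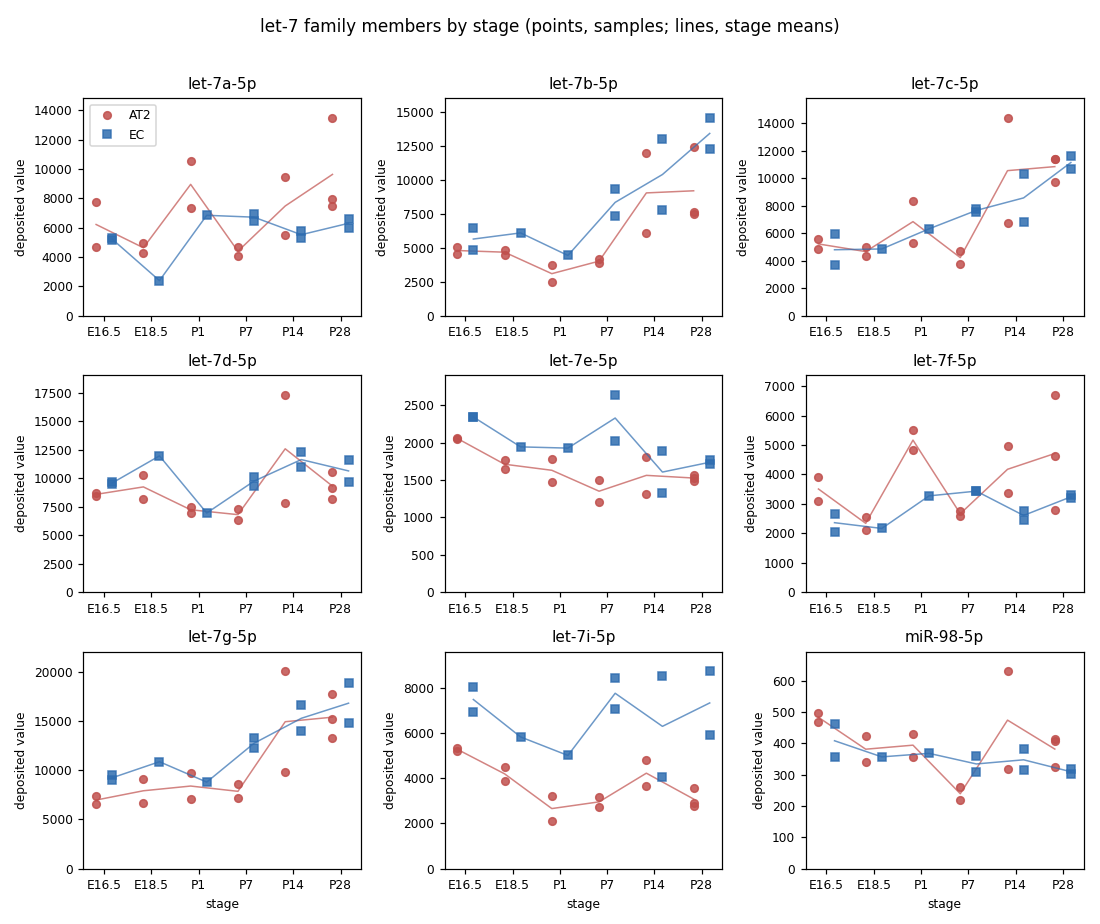
Deposited value (counts times 1 factor per sample) of each member by stage; circles are AT2 samples, squares EC samples, and lines join stage means. The stage means of let-7i lie lower in AT2 cells, and those of let-7b, let-7c and let-7g are highest at P14 and P28 in both cell types.

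The second comparison asked how the members change as the lung matures. In AT2 cells let-7g and let-7c rose in late over early stages, and in EC let-7c, let-7b and let-7a rose. In AT2 cells let-7g rose by 0.69 ± 0.22 (adjusted p = 0.0155) and let-7c by 0.64 ± 0.24 (adjusted p = 0.0357), both log2 ± SE in limma. In EC let-7c rose by 0.91 ± 0.28 (adjusted p = 0.0198), let-7b by 0.83 ± 0.28 (adjusted p = 0.0321) and let-7a by 0.80 ± 0.27 (adjusted p = 0.0307). No member was called lower in either cell type on the deposited scale, where let-7i (-0.49), let-7e (-0.35) and miR-98 (-0.32) had negative values in AT2 cells. In AT2 cells let-7i was called lower with quantile scaling (-0.62, adjusted p = 0.0058), with array weights and without the 3 EC samples (-0.49, adjusted p = 0.0397), and let-7e with quantile scaling (-0.51, adjusted p = 0.0296, all limma). With scaling to the microRNA total none of these 5 upward calls held (limma, adjusted p from 0.0760 to 0.215), and with quantile scaling let-7c in AT2 cells (0.33) and let-7a in EC (0.60) were not called. The counts were 2 of 9 higher in AT2 cells and 3 of 9 in EC, where 11.3% and 9.27% of all tested microRNAs were higher, and 0 of 9 lower in each, where 40.1% and 27.8% were lower. At an unadjusted p below 0.05, 1 member was lower in AT2 cells and 0 in EC, and edgeR called 6 higher in AT2 cells, 5 higher in EC and none lower. The median log2 difference was 0.33 over the members against -0.64 over all tested microRNAs in AT2 cells, and 0.45 against -0.57 in EC. Of all calls, 21.9% were higher in late AT2 cells as deposited, 61.6% after a median shift, 48.8% after quantile scaling, 15.0% with the microRNA total and 49.6% in edgeR, and for late EC these shares were 25.0%, 69.3%, 51.6%, 20.7% and 65.3%.

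let-7g had 7149 to 20020 in late AT2 cells (median 13235, n = 7), against 6592, 7335, 9132 and 6678 in early AT2 cells. The 2 late AT2 samples within the early range were both from P7. let-7g in EC was 13240 and 12202 at P7, 16576 and 13933 at P14, and 18848 and 14730 at P28, against 8967 and 9474 at E16.5 and 10852 at E18.5. The EC groups did not overlap, although the difference (0.56 ± 0.26) did not pass the test (limma, adjusted p = 0.0848).

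let-7c, made from a cluster with let-7b and from a second gene beside Mir99a, had 6798 to 11589 in late EC (median 9042, n = 6), against 5935, 3652 and 4851 in early EC. let-7b had 7377 to 14572 in late EC (median 10833, n = 6), against 6454, 4848 and 6104 in early EC. For both, every late EC sample was above every early one. Groups separated upward in this way for 3 of 9 members in EC (let-7b, let-7c, let-7g), where 6.95% of all tested microRNAs did so and 22.8% separated in either direction. let-7f separated upward as well without the 3 EC samples. In AT2 cells 0 of 9 separated, where 7.28% of all tested microRNAs did so upward and 24.8% downward.

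The EC call of let-7a depended most on 1 early sample. Its values were 6951 and 6475 at P7, 5296 and 5739 at P14, and 6599 and 5993 at P28, against 5306 and 5123 at E16.5 and 2386 at E18.5. Without EC E18.5 replicate 1, which also had the second fewest counts of the series, the log2 difference was 0.24 (limma, adjusted p = 0.570, range over 37 alternatives 0.00144 to 0.570). Early EC was then E16.5 alone, so that sample and its stage cannot be told apart. The call also ended without E16.5 replicate 1, E16.5 replicate 2 or P7 replicate 1 of EC (0.78 to 0.81).

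The other calls also depended on single samples. Leaving out 1 sample ended the AT2 call of let-7c for 6 samples (each of the 4 early ones, P7 replicate 1 and P14 replicate 1), and over all 23 such fits its log2 difference ran from 0.45 to 0.82. It ended the AT2 call of let-7g for E16.5 replicate 1 and E18.5 replicate 2 (0.52 to 0.86). In EC the call of let-7b ended without E16.5 replicate 2, P7 replicate 1, P14 replicate 1 or P28 replicate 1 (0.71 to 0.95), and that of let-7c without E16.5 replicate 2 (0.74 to 1.09). Without the 3 EC samples that stood toward AT2 cells, let-7b (0.99) and let-7c (1.03) were still called in EC and let-7a (0.81) was not.

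The test of any difference among the 6 stages called let-7a, let-7b, let-7c and let-7g in AT2 cells, 4 of 9 where 49.0% of all tested microRNAs were called, and 0 of 9 in EC, where 27.2% were (limma moderated F-test). At an unadjusted p below 0.05 it found 5 members in AT2 cells and 2 in EC, and edgeR called 5 and 3. let-7a had its highest AT2 values in 1 P28 sample (13463) and 1 P1 sample (10572), and the other AT2 samples lay between 4085 and 9473. Its call was lost with the specimen ID as a block (adjusted p = 0.0509) and without the 3 EC samples that stood toward AT2 cells (adjusted p = 0.0547), where let-7i was called in its place (limma, adjusted p = 0.0486).

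No member was called between neighbouring stages under limma on the deposited scale, and calls under other scalings are in the closing section. In AT2 cells the 5 steps from E16.5 to P28 called 0 of 9 each, where 0.662%, 8.61%, 0.662%, 0% and 1.99% of all tested microRNAs were called. In EC they also called 0 of 9 each, where 0%, 1.32%, 0.331%, 0% and 2.65% were. At an unadjusted p below 0.05 the AT2 step from P7 to P14 had 5 members higher, that from P1 to P7 had 2 lower and that from E18.5 to P1 had 2 higher. In EC the step from E16.5 to E18.5 had 1 lower and that from E18.5 to P1 had 1 higher. let-7f was called higher in the AT2 step from E18.5 to P1 without the 3 EC samples (1.15, limma, adjusted p = 0.0421), against an adjusted p of 0.0520 with them. edgeR called 2 members higher in the AT2 step from E18.5 to P1 and none in the other 9 steps. Specimen IDs begin with LMM.15 in all AT2 samples at E18.5 and with LMM.16 at P1. Prefix and stage therefore cannot be told apart in that step. The late minus early change did not pass the test of a difference between the cell types for any member (limma, 0 of 9 at either an adjusted or an unadjusted p below 0.05, where 6.29% of all tested microRNAs were called, and edgeR 0 of 9).

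Because the calls above moved with the scaling, the make-up of the family was examined. The share of a member in the family sum of its own sample does not depend on any factor applied to that sample. Shares of 1 sum are tied to each other, since a rise of one lowers the rest, and different probes may count with different efficiency, so each member was compared only with itself across samples. For the test, every sample was scaled to the same family sum before the limma fit, a choice made after the data were seen. This moved the median difference over all 302 microRNAs to -0.24 for AT2 minus EC, -0.95 for late minus early in AT2 cells and -0.997 in EC.

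Within the family, AT2 cells carried relatively more let-7a, let-7f and miR-98, and less let-7i and let-7b, than EC. let-7f was higher in AT2 cells by 0.56 ± 0.14 (adjusted p = 0.00289), let-7a by 0.52 ± 0.12 (adjusted p = 0.0016) and miR-98 by 0.31 ± 0.13 (adjusted p = 0.0426), all log2 ± SE in limma. let-7i (-0.63 ± 0.13, adjusted p = 0.000472) and let-7b (-0.29 ± 0.12, adjusted p = 0.0383) were lower. The members called were 3 of 9 higher and 2 of 9 lower, beside 25.2% and 36.8% of all tested microRNAs on this scale. let-7a, let-7f and let-7i kept their calls in all 27 alternatives run on this scale, including the 23 that left out 1 sample, whereas let-7b and miR-98 kept theirs in 13 each. Without the 3 EC samples that stood toward AT2 cells let-7a (0.62), let-7f (0.59) and let-7i (-0.66) were called, and let-7b stood at -0.27 and was not called (limma, adjusted p = 0.103, range over 27 alternatives 0.0101 to 0.104).

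let-7i made up 11.8% and 12.8% of the family in AT2 cells at E16.5, 10.5% and 10.6% at E18.5, 4.68% and 7.35% at P1, 7.97% and 9.16% at P7, 5.61% and 8.21% at P14, and 4.16%, 4.98% and 5.34% at P28. In EC it made up 14.2% and 17.7% at E16.5, 12.5% in the E18.5 sample, 11.4% in the P1 sample, 13.6% and 12.7% at P7, 12.01% and 7.59% at P14, and 11.3% and 9.17% at P28. All 9 specimen IDs had the lower share in AT2 cells, with a mean log2 ratio of -0.69 ± 0.43 (SD, n = 9).

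let-7a and let-7f, whose genes lie 261 bases apart on chromosome 13, leaned the other way. let-7a made up 11.1% to 23.5% of the family in AT2 samples (median 12.3%, n = 13) and 5.14% to 15.59% in EC samples (median 10.8%, n = 10). Its share was higher in AT2 cells for 9 of 9 specimen IDs, with a mean log2 ratio of 0.48 ± 0.46 (SD), although in 3 of them by less than 0.05. let-7f made up 4.18% to 12.3% of the family in AT2 samples (median 7.62%) and 3.87% to 7.45% in EC samples (median 4.87%). For 8 of 9 IDs AT2 cells had more (0.51 ± 0.41), the exception being a P28 pair. let-7d, from the same chromosome 13 cluster, had a fitted log2 difference of 0.01 ± 0.08 (SE, limma, adjusted p = 0.913), and 3 of 9 IDs had the higher share in AT2 cells.

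**Figure D3:**
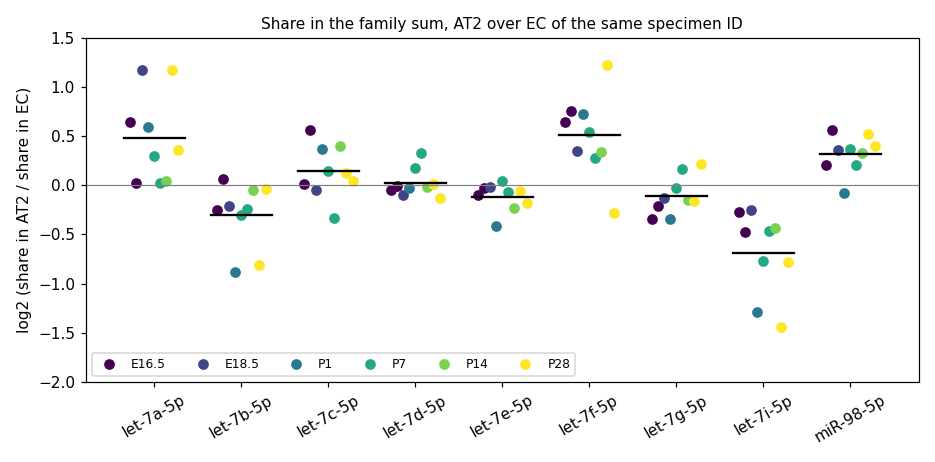
Log2 ratio of each member's share in the family sum, AT2 over EC, for the 9 specimen IDs common to AT2 and EC samples, coloured by stage; bars are means. All 9 points of let-7i lie below 0, all 9 of let-7a lie above 0, and let-7d lies close to 0.

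With age the make-up of the family moved away from let-7e, let-7d and miR-98, which passed the test in AT2 cells and in EC. In AT2 cells let-7i (-0.80 ± 0.18, adjusted p = 0.00142), let-7e (-0.67 ± 0.17, adjusted p = 0.00286), miR-98 (-0.63 ± 0.18, adjusted p = 0.00788) and let-7d (-0.29 ± 0.12, adjusted p = 0.0373) fell and let-7g rose (0.37 ± 0.13, adjusted p = 0.0233) relative to the family sum (limma, log2 ± SE). In EC let-7e (-0.65 ± 0.20, adjusted p = 0.0114), miR-98 (-0.65 ± 0.21, adjusted p = 0.0188) and let-7d (-0.45 ± 0.14, adjusted p = 0.0115) fell and let-7c rose (0.47 ± 0.19, adjusted p = 0.0493). These were 4 of 9 lower and 1 higher in AT2 cells, beside 58.3% and 7.62% of all tested microRNAs, and 3 of 9 lower and 1 higher in EC, beside 48.3% and 4.30%. No member passed the test of a difference between the cell types in this change (limma, 0 of 9 at an adjusted or unadjusted p below 0.05, beside 4.97%).

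let-7e, whose gene lies 367 bases from Mir125a, made up 2.12% to 4.38% of the family in late AT2 cells (median 2.66%, n = 7), against 4.49%, 5.07%, 4.13% and 4.51% in early AT2 cells. In EC it made up 2.28% to 4.24% late (median 2.65%, n = 6), against 4.80%, 5.17% and 4.18% early. Its lowest shares in both cell types were at P14 and P28, and 1 P7 sample of each overlapped the early range. The call held in all 27 alternatives in each cell type.

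miR-98 made up 0.582% to 0.744% of the family in late AT2 cells (median 0.641%), against 1.09%, 1.15%, 0.987% and 0.927% in early AT2 cells. In EC it made up 0.410% to 0.644% late (median 0.516%), against 0.947%, 0.782% and 0.768% early. Late and early samples did not overlap in either cell type. let-7i separated late (4.16% to 9.16%) from early (10.5% to 12.8%) in AT2 cells, and let-7c separated late (12.4% to 16.6%) from early (8.04% to 12.2%) upward in EC. Such separation was downward for 2 of 9 members in AT2 cells and 1 of 9 in EC, where 32.1% and 35.4% of all tested microRNAs showed it, and upward for 0 of 9 and 1 of 9, where 5.96% and 2.98% did. let-7d also separated downward in EC without the 3 EC samples.

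The calls of let-7i, let-7e and miR-98 in AT2 cells, and that of let-7e in EC, held in all 27 alternatives on this scale. In EC let-7d was not called without EC E18.5 replicate 1 (-0.29), and miR-98 was not called without E16.5 replicate 1 (-0.58) or P7 replicate 1 (-0.59). The AT2 call of let-7d was kept in 18 alternatives, that of let-7g in 24, and the EC call of let-7c in 7. Without the 3 EC samples that stood toward AT2 cells let-7c stood at 0.48 and was not called, nor was it with the specimen block (0.43), while let-7e, miR-98 and let-7d were.

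**Figure D4:**
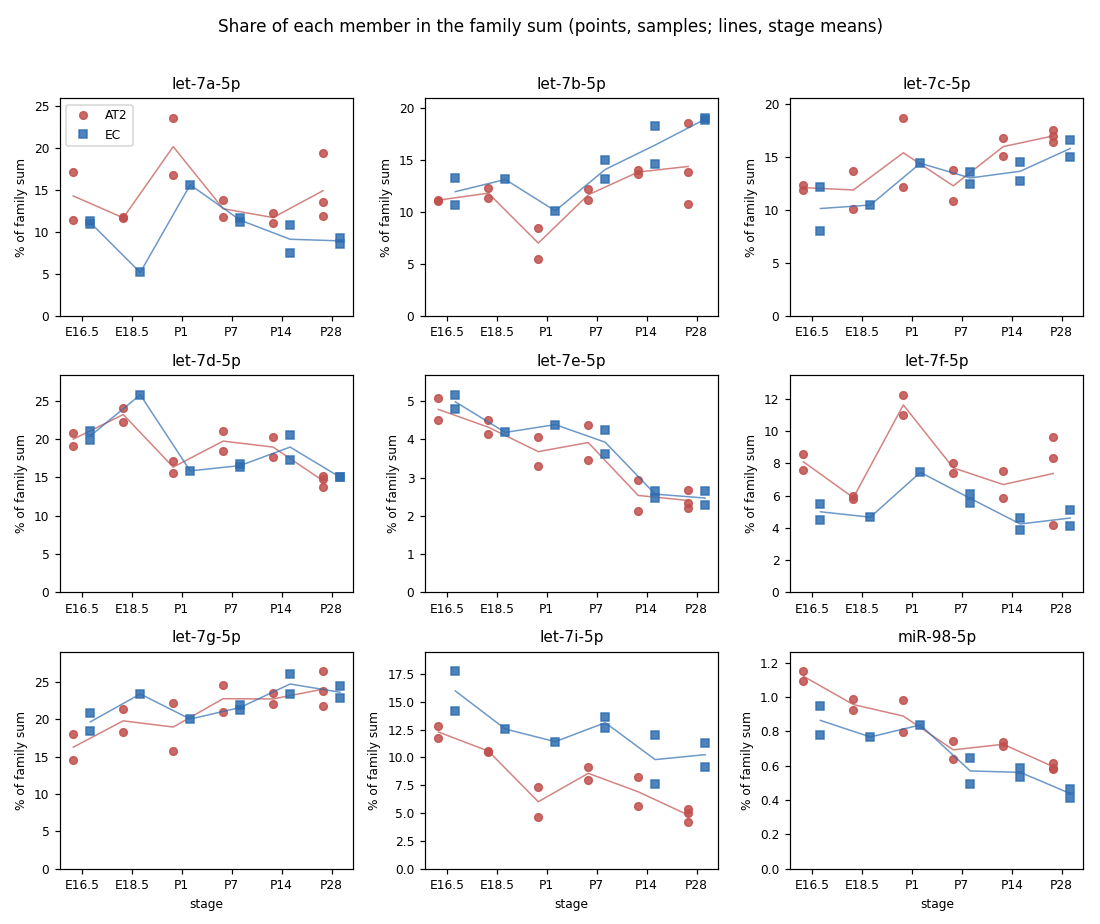
Share of each member in the family sum of its sample, in percent, by stage; circles are AT2 samples, squares EC samples, and lines join stage means. let-7e and miR-98 have lower shares at P14 and P28 than at E16.5 in both cell types, and let-7i is lower in AT2 cells than in EC.

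Members from 1 gene cluster did not always vary together. Over the 23 samples, log2 values of let-7b and let-7g correlated at r = 0.90, of let-7a and let-7f at 0.85, of let-7c and let-7g at 0.80 and of let-7e and let-7i at 0.75. These pairs were also positive within each cell type. let-7a and let-7d, from 1 cluster, correlated at 0.05 over all samples, but at 0.41 within AT2 cells and -0.45 within EC. let-7b and let-7c correlated at 0.74 (0.71 in AT2 cells, 0.89 in EC) and let-7f and miR-98 at 0.33 (0.39, -0.27). let-7f and let-7i correlated at -0.42 (-0.33 in AT2 cells, 0.15 in EC). All these correlations are descriptions over samples that share factors, libraries and groups. Over the 12 group means, let-7g (r = 0.94), let-7c (0.92) and let-7b (0.90) followed the family sum, of which they are part, and miR-98 (0.14) and let-7e (0.03) did not. Of the tested microRNAs outside the family, MIMAT0000536 and MIMAT0004186 (both r = 0.77) were most like the family sum over the same 12 means.

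How far the deposited scale decides the calls is shown by the differences under 6 scalings. These are the deposited values, a median shift, quantile scaling, the microRNA total, the family sum, and edgeR on counts. Between AT2 cells and EC, let-7a and let-7f were positive without a call on the deposited scale and higher with a call under the other 5. let-7i was lower under each of the 6, and called in 4. In late over early samples let-7a, let-7b, let-7c, let-7f and let-7g were positive under each of the 6 in both cell types. let-7d, let-7e, let-7i and miR-98 turned direction with the scaling in both cell types.

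Differences relative to the median over all tested microRNAs were also taken after the data were seen. The scalings moved the median over all 302 microRNAs between -0.43 and 0.33 for AT2 minus EC, between -0.95 and 0.24 for AT2 late minus early, and between -0.997 and 0.04 for EC late minus early. Between AT2 cells and EC, let-7i lay at -0.41 relative to it as deposited, and at -0.13 with quantile scaling. let-7a lay at 0.74 and let-7f at 0.78 as deposited, and at 0.80 and 0.75 with quantile scaling. In late over early samples all 9 members lay above the median in both cell types as deposited. The median shift, the microRNA total, the family sum and edgeR also apply 1 factor per sample, which nearly cancels against the median. Their like values are therefore a repeat of the deposited ones and no separate support. With quantile scaling, which is not 1 factor per sample, 5 of 9 members lay above the median in AT2 cells and 6 of 9 in EC. As deposited the 9 members lay from 0.16 (let-7i) to 1.33 (let-7g) above it in AT2 cells and from 0.36 (let-7e) to 1.48 (let-7c) above it in EC.

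**Figure D5:**
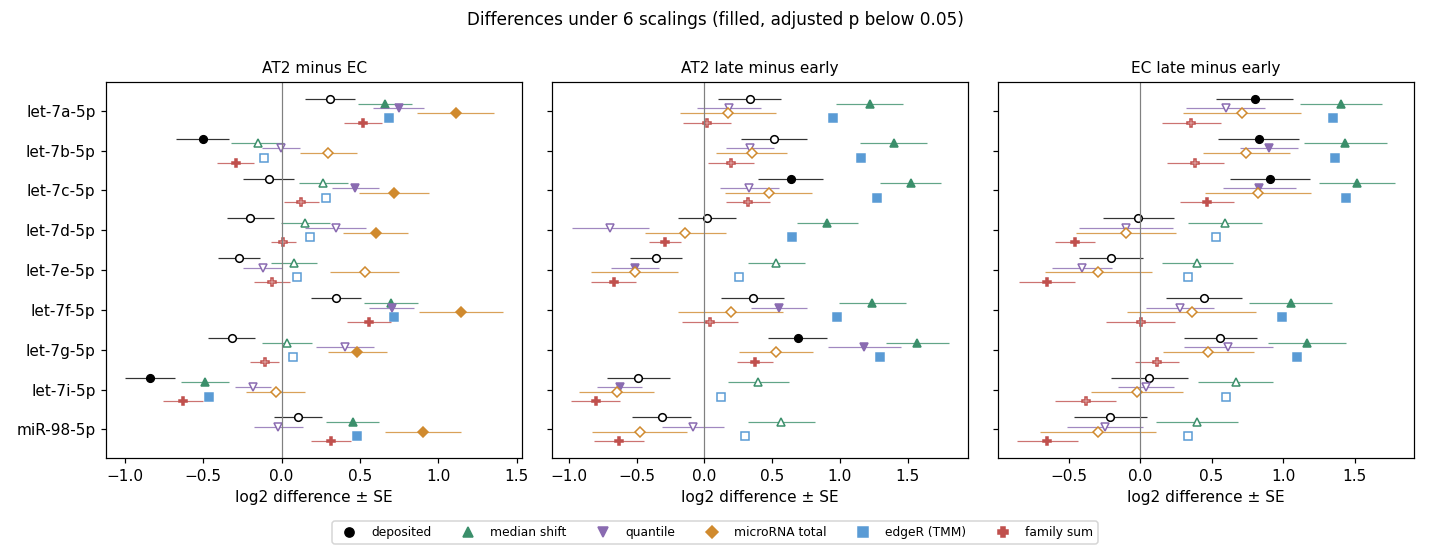
Log2 differences of the 9 members under 6 scalings for AT2 minus EC, AT2 late minus early and EC late minus early; filled symbols have an adjusted p below 0.05, bars are SE (none for edgeR). let-7i lies left of 0 under every scaling in the first panel, and let-7b lies on both sides.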

How the data were processed

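The deposited table holds nCounter digital counts of mouse microRNA probes for 23 samples. From the values, each deposited signal is a whole count times 1 factor per sample (0.296 to 7.93), since 100% of 13861 values above 1 came out whole within 0.1. Which rule the authors used for the factors is not stated in the labels or the file. The build mm10 is named per the submitters' processing notes. Of 626 rows, 14 were control rows. Samples were grouped by the cell type and stage in the labels, which do not state whether replicates were separate animals. P-values therefore reflect only how these samples vary, which may be technical. The IDs in the titles begin with LMM.15 or LMM.16, which the labels do not explain. All E18.5 and P7 samples have LMM.15, and all E16.5, P1 and AT2 P14 samples have LMM.16. Each step from E16.5 to P7, and the AT2 step from P7 to P14, thus changes prefix with stage. Without the EC samples that stood toward AT2 cells, all with LMM.16, late EC has LMM.15 alone and early EC has both. A fit with the prefix as a covariate is among the 37 alternatives whose ranges are given above, and its own values are not given here.

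The members and lists were chosen with earlier results of these data known. Members were named by identifier, and other microRNAs by the highest correlation with the family sum. Lists of transcript partners, passenger arms and cell type markers could not be matched to identifiers and give no values here. The main test was limma 3.58.1 (R 4.3.3) on log2(value + 1) with 12 group means and a trend, over the 302 of 602 microRNAs that exceeded the mean plus 2 SD of 8 negative controls in at least 2 samples, with Benjamini-Hochberg adjustment over all of them. The alternatives, among them edgeR 4.0.16 on the recovered counts, are in the closing section. Scaling to the family sum, leaving 2 identifiers out of the total and differences relative to the median of all microRNAs were added after the data were seen. Counts of microRNAs were 26640 to 571724 per sample, and 95% Wilson intervals cover counting error only. The fits were run on simulated counts with known differences between the cell types and no stage or specimen effects. That run covers AT2 minus EC alone, and neither the deposited factors nor scaling to the family sum. Samples of the 2 cell types with the same ID in their titles may come from the same specimen, which the labels do not state. Deviations of 6 of 7 such pairs correlated at 0.21 to 0.31 and those of the other at -0.02 (consensus 0.23). The 2 pairs at E16.5 (both 0.27) and the 2 at P7 (both 0.28) are not separate values, because 2 replicates deviate from their mean by equal and opposite amounts. The fit with the ID as a random block is given where it changed a call.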

Additional observations from a re-analysis of the deposited data

Results flagged for a closer look

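In 6 of the 84 groups of samples examined, 1 sample stood far from the others, where chance gives about 1 in 20. let-7a had 2386 in EC E18.5 replicate 1, and the next lowest of the 10 EC samples had 5123. let-7d had 17327 in AT2 P14 replicate 1, and the next highest of the 7 late AT2 samples had 10542. miR-98 had 461 in EC E16.5 replicate 1, and the next highest of the 10 EC samples had 381. As a share of the family, let-7a made up 17.1% in AT2 E16.5 replicate 1, where the next of the 4 early AT2 samples had 11.7%. It made up 19.3% in AT2 P28 replicate 1, where the next of the 7 late AT2 samples had 13.7%. let-7b made up 18.6% in AT2 P28 replicate 3, where the next of the same 7 had 14.1%.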

How the results depend on the processing

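Counts below are of the 9 members called. For AT2 minus EC, 2 members lower as deposited became 4 with a median shift or edgeR (let-7a, let-7f and miR-98 higher, let-7i lower), 4 with array weights (1 higher), 4 with the replicate block (2 higher), 4 without the 3 EC samples (all lower), 3 with quantile scaling and 6 with the microRNA total (all higher). For AT2 late minus early, 2 became 6 with a median shift or edgeR (all higher), 4 with quantile scaling (let-7e and let-7i lower) or array weights (let-7i lower), 1 with no filter or no trend, and 0 with the microRNA total. For EC late minus early, 3 became 5 with a median shift or edgeR and 0 with the total. For differences among stages, 4 in AT2 cells became 2 (quantile), 1 (total) and 7 (weights), and 0 in EC became 4 (median shift), 1 (quantile or weights) and 3 (edgeR). Over the 6 stages, 4 AT2 minus EC calls became 2 (median shift, background subtracted, no filter, no trend), 0 (total), 1 (edgeR) and 7 (weights). The stage steps, with 0 calls, had 3 (median shift, weights), 1 (quantile, a floor, without the 3 EC samples, without the 2 samples of fewest counts) and 2 (no filter, edgeR). Relative to the family sum, EC late minus early fell to 2 calls without the 2 samples of fewest counts, against 4. On that scale let-7f was called higher in the AT2 step from E18.5 to P1 (0.98, limma, adjusted p = 0.0486), but not with the replicate block (adjusted p = 0.0570). let-7i was called lower in it without the 3 EC samples (-0.85, limma, adjusted p = 0.0394). The EC step between these stages, with 1 sample each, is not given on that scale. The family sum ratio of -0.14 was 0.59 as a share of counts.

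Of the called members, those reversed were let-7b, with 0.30 for AT2 minus EC under the total, and at P7 let-7b (0.0015 with quantile scaling, 0.32 with the total) and let-7e (0.59 with the total). Among members not called, 16 of 28 values of AT2 minus EC turned direction under the other scalings, 4 of them as calls, with 8 of 28 in AT2 late minus early and 7 of 24 in EC. The cause was not tested. Leaving out 1 sample gave 2 to 5 calls for AT2 minus EC, 0 to 3 for AT2 late minus early, 0 to 4 for EC, 0 for their difference, 3 to 6 among AT2 stages, 0 to 2 among EC stages, 1 to 6 by stage and 0 to 5 over the steps. Relative to the family sum it gave 3 to 5, 3 to 5, 2 to 4 and 0. The family ratio ran from -0.25 to -0.06 and the let-7i share ratio from -0.74 to -0.59. Relative to the family sum the replicate block gave 5, 5 and 3 calls, and beyond the changes named it altered no call of the comparisons printed. Depth limits EC E18.5 and AT2 P28 replicate 1 most.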
